A study of Homo sapiens with 6 samples.

Results

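HOX genes encode homeodomain transcription factors, and the analysis covers those of the 4 human HOX clusters. Members were all genes with the symbol HOXA, HOXB, HOXC or HOXD followed by digits alone as the only symbol of at least 1 probe set in the platform annotation, and each was read from its probe set with the highest mean over all 6 arrays. That gave 28 genes of the 19775 measured: 1 of HOXA, 10 of HOXB, 9 of HOXC and 8 of HOXD. RefSeq lists 39 such genes. The other 11, 10 HOXA genes and HOXD3, had no probe set with a single symbol of their own in the annotation used and were not analysed here. Probe sets were thus chosen by their mean intensity over both groups together, which is used below only to describe brightness.

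RNA came from DLD-1, a human colon cancer line of epithelial origin. It was measured on 6 oligonucleotide arrays, 3 of the derivative labelled DLD-1Δα-Cat and 3 of the derivative labelled DLD-1α-Cat, both kept without treatment for 96 h in type I collagen at 1 mg/ml. The labels call both subclones of the line and do not spell out Δα-Cat. Each label stands for 1 derivative, so what belongs to the label and what belongs to the derivative cannot be told apart. Nothing in the labels ties the 3 arrays of a group to separate cultures, so p-values cover only the spread among these arrays, and that spread may be technical. CTNNA1, the gene of αE-catenin, served as a check of the labels and lay between 11.01 and 11.38 on the DLD-1Δα-Cat arrays and between 12.73 and 12.79 on the others (difference -1.52, SE 0.119, limma adjusted p = 0.000838).

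The 4 clusters arose by duplication of an ancestral cluster. Genes with the same paralog number are the closest relatives between clusters, and within a cluster the number follows the gene order. In the embryo, low numbers are switched on early and towards the head and high numbers late and towards the tail, and adult gut epithelium keeps a set of them on. Polycomb proteins hold clusters silent, trithorax proteins keep them active, and HOX proteins bind DNA together with cofactors of the PBX and MEIS families.

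Expression is given as RMA log2 intensity, in which 1 unit is a doubling of brightness. Probe sets differ in how brightly they report, so levels are compared between groups for 1 gene and not between genes. A positive difference means a higher mean in DLD-1Δα-Cat. Each comes with its standard error (SE) and with limma's p after Benjamini-Hochberg adjustment over all genes, called at a threshold of 0.05.

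In DLD-1Δα-Cat 5 of the 28 HOX genes were higher and 0 lower, against a background of 3.84% higher and 1.67% lower, 5.52% in all, among all genes. Of the 5, 4 belonged to the HOXC cluster (HOXC4, HOXC6, HOXC9 and HOXC10) and 1 to HOXD (HOXD8). No gene of HOXB passed, nor did HOXA2. Blocked on replicate number, the fit gave 6 higher and 1 lower, with HOXD4 (adjusted p = 0.0328) and HOXD11 (adjusted p = 0.0350) added and none of the 5 lost. At an unadjusted p under 0.05 by limma, 8 were higher and 2 lower, beside 11.8% and 8.98% of all genes. The median difference was 0.12 over the 28 genes and -0.030 over all genes, and by cluster it was 0.084 in HOXB, 0.15 in HOXC and 0.0055 in HOXD. These medians rested on single arrays. That of HOXC was 0.28 without replicate 2 of DLD-1Δα-Cat, 0.060 without its replicate 3 and 0.091 without replicate 2 of DLD-1α-Cat. That of HOXD lay below 0 without replicate 2 of DLD-1Δα-Cat (-0.021) or without replicate 2 (-0.047) or 3 (-0.053) of DLD-1α-Cat, and between 0.020 and 0.13 without any of the other 3 arrays. That of HOXB was 0.047 without replicate 2 of DLD-1Δα-Cat, and 0.16 and 0.040 without replicates 2 and 3 of DLD-1α-Cat. The median over the 28 genes was 0.063 without replicate 2 of DLD-1Δα-Cat and 0.073 without replicate 3 of DLD-1α-Cat. The arrays did not overlap for 8 higher and 3 lower HOX genes, where 14.1% and 13.1% of all genes, together 27.2%, did so. More cells with a given transcript and more transcript per cell cannot be told apart in such bulk samples.

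**Figure D1:**
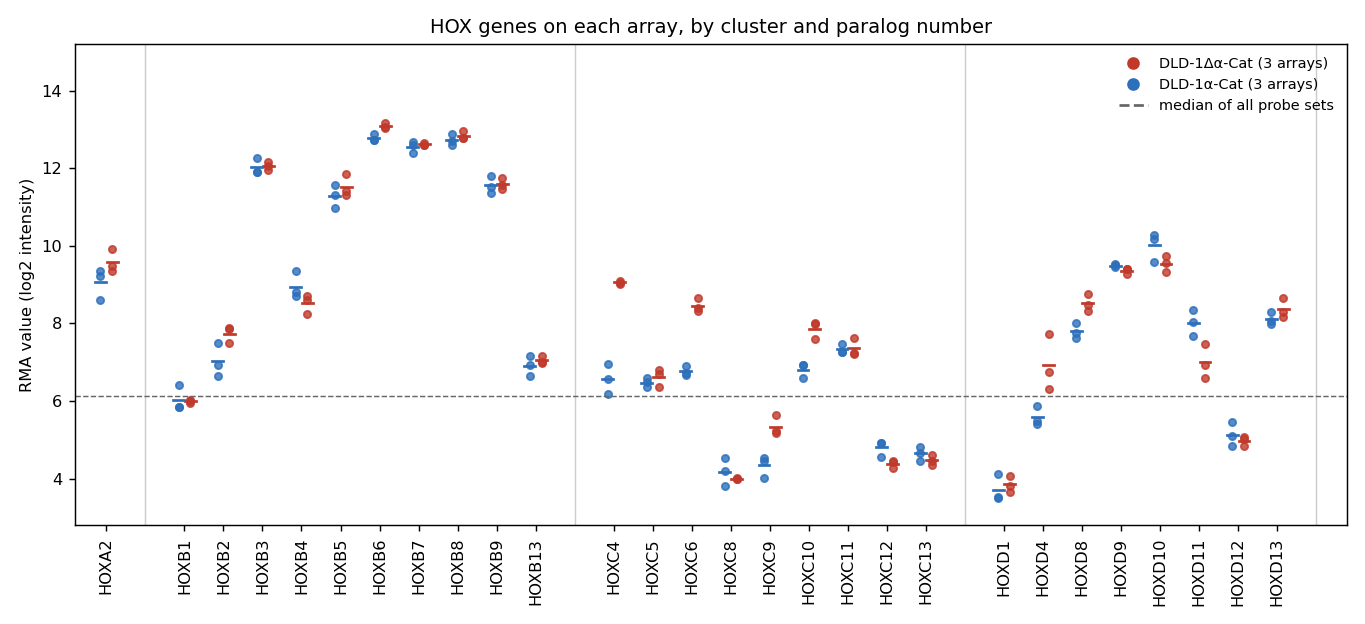
RMA log2 intensity (vertical axis) of the 28 HOX genes, ordered by cluster and paralog number; each point is 1 array, short lines are group means of 3 arrays, and the dashed line is the median of all probe sets, 6.12. HOXC4 and HOXC6 show the widest gaps between the groups, at 2.49 and 1.69, while the points of HOXB3, HOXB7, HOXB8 and HOXB9 overlap between the derivatives.

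The HOXC genes lie on chromosome 12. HOXC4, an anterior member of the cluster, gave the largest difference of the 28 genes. It read 9.03, 9.09 and 9.05 on the DLD-1Δα-Cat arrays and 6.19, 6.95 and 6.56 on the DLD-1α-Cat arrays. The DLD-1α-Cat arrays were thus spread over a wider range than the DLD-1Δα-Cat arrays, and all lay well below them. The means were 9.06 ± 0.0304 and 6.57 ± 0.380 (SD, n = 3 each), a difference of 2.49 or 5.61-fold (SE 0.183, adjusted p = 0.000721).

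HOXC6 read 8.32, 8.39 and 8.65 in DLD-1Δα-Cat and 6.72, 6.67 and 6.90 in DLD-1α-Cat. Its difference was 1.69 or 3.22-fold (SE 0.124, adjusted p = 0.000721), and the groups stood apart by more than the range within either. HOXC10, which helps to pattern the lumbar region and hindlimb, read 7.97, 7.60 and 8.0 against 6.92, 6.58 and 6.93. The difference of 1.04, or 2.06-fold, passed as well (SE 0.153, adjusted p = 0.0111). HOXC9, a gene of the thoracic region, read 5.22, 5.63 and 5.17 against 4.53, 4.46 and 4.03. It rose by 1.00 (SE 0.180, adjusted p = 0.0227), but both groups lay below 6.12, the median of all probe sets.

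The other 5 HOXC genes did not pass. HOXC5, which lies between HOXC4 and HOXC6, differed by 0.15 (SE 0.138, adjusted p = 0.565), and its groups overlapped. HOXC8 (-0.17), HOXC11 (0.025) and HOXC13 (-0.18), the last a gene of hair and nail, did not pass. HOXC12 read lower on all DLD-1Δα-Cat arrays, from 4.28 to 4.46 against 4.57 to 4.93, without passing (-0.42, adjusted p = 0.116). HOXC8, HOXC12 and HOXC13 were dim, with means below the median of all probe sets, which limits what their values can show. Each HOXC gene rests on a single probe set.

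For HOXC4 and HOXC5, whose differences between the groups were 2.49 and 0.15, RefSeq places the start of transcription at the same base. The stretch before that annotated start is thus the same for both. Whether the transcripts read by their probe sets start there was not tested. That stretch is shown here with the stretches before HOXD8, which rose, and before HOXD4 and HOXD11, which differed in opposite directions without passing. All are the 250 bases before the start on the plus strand of GRCh38.p14, as RefSeq gives them, at chr12:54016638-54016887 for HOXC4, chr2:176129455-176129704 for HOXD8, chr2:176151300-176151549 for HOXD4 and chr2:176107030-176107279 for HOXD11.
HOXC4: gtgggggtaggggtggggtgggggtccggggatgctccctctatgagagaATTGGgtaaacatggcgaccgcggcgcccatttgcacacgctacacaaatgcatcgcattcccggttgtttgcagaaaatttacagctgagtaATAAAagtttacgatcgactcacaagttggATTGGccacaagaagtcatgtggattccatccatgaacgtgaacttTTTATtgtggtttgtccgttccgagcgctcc
HOXD8: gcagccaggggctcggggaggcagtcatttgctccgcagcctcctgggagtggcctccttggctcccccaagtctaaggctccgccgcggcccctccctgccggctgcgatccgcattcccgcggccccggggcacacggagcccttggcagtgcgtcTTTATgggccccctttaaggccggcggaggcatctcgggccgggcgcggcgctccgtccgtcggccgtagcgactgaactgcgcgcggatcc
HOXD4: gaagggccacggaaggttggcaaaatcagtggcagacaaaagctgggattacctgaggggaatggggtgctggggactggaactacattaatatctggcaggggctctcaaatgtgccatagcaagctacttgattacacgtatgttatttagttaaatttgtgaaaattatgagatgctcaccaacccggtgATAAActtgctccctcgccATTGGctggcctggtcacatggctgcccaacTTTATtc
HOXD11: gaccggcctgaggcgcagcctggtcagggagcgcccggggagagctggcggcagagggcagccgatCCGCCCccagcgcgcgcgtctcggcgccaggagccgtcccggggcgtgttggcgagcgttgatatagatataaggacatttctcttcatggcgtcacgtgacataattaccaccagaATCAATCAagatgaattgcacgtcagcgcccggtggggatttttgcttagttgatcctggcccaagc

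Capitals mark matches, on either strand, to the TATA box TATAAA, the CCAAT box CCAAT, the GC box GGGCGG, the CDX core TTTAT, the nuclear receptor core AGGTCA and the HOX-PBX site TGATTNAT. TATAAA and TTTAT can overlap. Upstream of HOXC4 there were 2 CCAAT boxes and 2 CDX cores, and upstream of HOXD4 1 CCAAT box and 2 CDX cores. The HOXD8 stretch held 1 CDX core, and the HOXD11 stretch 1 GC box and 1 HOX-PBX site. Of 34788 promoter stretches of that length, 32.0% held a CCAAT box, 32.8% a CDX core, 42.6% a GC box, 10.8% a TATA box, 12% the nuclear receptor core and 2.48% the HOX-PBX site. HOXD8 and HOXD11 had 28 and 23 CpG pairs, HOXC4 14 and HOXD4 4, beside a median of 11. The table held a promoter for 11 of the 28 genes, with none for HOXC6, HOXC9 or HOXC10. These are matches of letters and were not tested against the expression values.

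The HOXD genes lie on chromosome 2 and had differences of both signs. HOXD8 read 8.47, 8.76 and 8.32 in DLD-1Δα-Cat and 7.75, 8.02 and 7.64 in DLD-1α-Cat. It rose by 0.71 or 1.64-fold (SE 0.152, adjusted p = 0.0410), and the groups did not overlap. The call was lost without any 1 of 5 of the arrays, with adjusted p from 0.0334 to 0.144 over the 6 runs.

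HOXD4, a gene of the hindbrain and neck region, read 6.31, 7.72 and 6.74 against 5.47, 5.88 and 5.42. The wide spread of the DLD-1Δα-Cat arrays left the difference of 1.34 (SE 0.336) at limma adjusted p = 0.0671. The limma adjusted p was 0.0328 in the fit blocked on replicate number. With the β-actin ratio described below as a covariate, the difference was 0.65 (limma adjusted p = 0.805). The further probe set with HOXD4 as its only symbol, dimmer, differed by -0.26. Probe sets that carry HOXD4 along with HOXD3 and LOC401021 differed by 0.86, 0.51 and -0.32. None of these passed when every probe set was tested on its own. HOXD11, which patterns the forearm and kidney, read 6.94, 7.46 and 6.60 against 7.67, 8.36 and 8.05. HOXD11 was thus lower on every DLD-1Δα-Cat array (-1.02, SE 0.250, limma adjusted p = 0.0621). It passed in the fit blocked on replicate number (limma adjusted p = 0.0350), but not with the β-actin ratio as a covariate (-1.37, limma adjusted p = 0.407).

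HOXD10, which acts in the hindlimb and has the brightest HOXD probe set, read 9.31, 9.75 and 9.56 against 9.58, 10.19 and 10.28. Its groups overlapped and the difference of -0.48 did not pass (SE 0.205, adjusted p = 0.245). The differences of its further probe sets were -0.29 and -0.21. HOXD9 (-0.13), HOXD12 (-0.15), HOXD1 (0.14) and HOXD13 (0.27), a gene of digits and hindgut, did not pass either. When every probe set was tested on its own, where 2.45% passed, a dimmer probe set of HOXD13 was higher by 0.78 (limma adjusted p = 0.0425).

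None of the HOXB genes of chromosome 17 passed in the reported fit. A mean above the median of all probe sets was found for 9 of the 10, but probe sets were chosen by that mean. HOXB6 read 13.16, 13.06 and 13.05 in DLD-1Δα-Cat and 12.73, 12.87 and 12.73 in DLD-1α-Cat. The groups did not overlap, but the difference was only 0.31 (SE 0.0958, adjusted p = 0.116), and the further probe set gave 0.30. HOXB3 (0.037), HOXB7 (0.061), HOXB8 (0.11) and HOXB9 (0.035) had differences within 1 SE of 0, and HOXB5, known from the enteric nervous system, stood at 0.23 (SE 0.193). HOXB4, known for its effect on blood stem cells, differed by -0.44 (SE 0.201, adjusted p = 0.274) and HOXB2, a hindbrain gene, by 0.72 (SE 0.224, adjusted p = 0.123). HOXB13, a gene of prostate and distal colon, differed by 0.13 (SE 0.142) and HOXB1, dim on average, by -0.048 (SE 0.165). HOXA2, of the hindbrain and pharyngeal arches, read 9.47, 9.92 and 9.35 against 8.61, 9.34 and 9.22. The nearest arrays of those groups read 9.35 and 9.34, and the difference of 0.52 did not pass (SE 0.227, adjusted p = 0.246).

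**Figure D2:**
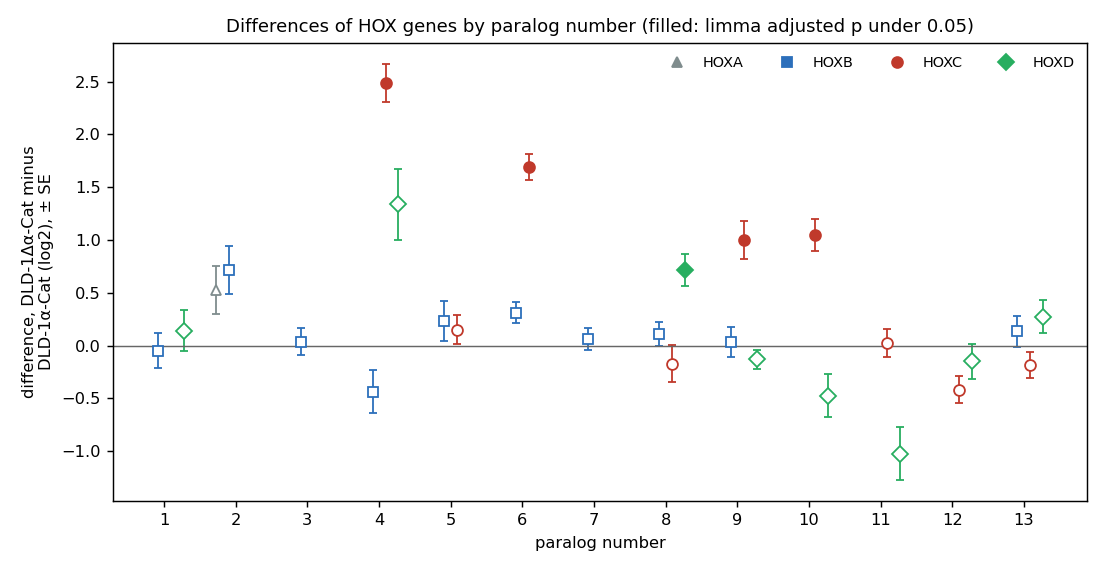
Difference in RMA log2 intensity (DLD-1Δα-Cat minus DLD-1α-Cat, vertical axis, bars ± SE, 3 arrays against 3) of each HOX gene against its paralog number, with 1 symbol and colour per cluster; filled symbols passed the threshold. HOXC4, HOXC6, HOXC9, HOXC10 and HOXD8 are filled, and the HOXB genes of the same numbers stay between -0.44 and 0.31.

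Values differed among paralogs of the same number. Among the genes numbered 4, the differences were 2.49 for HOXC4, 1.34 for HOXD4 and -0.44 for HOXB4. For number 6 they were 1.69 for HOXC6 and 0.31 for HOXB6, and for number 9 they were 1.00 for HOXC9, 0.035 for HOXB9 and -0.13 for HOXD9. For number 10, HOXC10 stood at 1.04 and HOXD10 at -0.48. The gap between the responses of a pair was computed array by array for all 19 pairs of paralogs. HOXB4 minus HOXC4 was -2.92 (SE 0.195), HOXB6 minus HOXC6 was -1.38 (SE 0.169) and HOXC10 minus HOXD10 was 1.52 (SE 0.372). In 11 of the 19 pairs the groups did not overlap in this gap, as in 29.6% of all pairs of the 19775 genes. The 19 pairs share genes, so that HOXB4, HOXC4, HOXC9, HOXD4, HOXD8 and others enter more than once. Each of the 11 but HOXC13 with HOXD13 holds a called gene, HOXD4 or HOXD11, so the count largely repeats those differences. Each of the 11 gave p = 0.1 in a two-sided exact permutation test (0.173 after Benjamini-Hochberg adjustment over the 19 pairs). That p is the smallest that 3 against 3 arrays allow.

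The neighbours of the clusters were read as the 3 nearest tested genes on each side in RefSeq order. Of these 24 genes 3 were higher and 0 lower by limma, beside 3.84% and 1.67% of all genes, and none of the HOXA and HOXD neighbours passed. At the HOXC4 end of the HOXC cluster the noncoding gene FLJ12825 read 5.80, 6.03 and 6.08 in DLD-1Δα-Cat and 4.90, 4.31 and 4.74 in DLD-1α-Cat. It rose by 1.32 (SE 0.168, adjusted p = 0.00638) within the dim range, and its further probe set differed by 0.30. Beside it LINC02381 was higher on all 3 arrays without passing (1.09, adjusted p = 0.0743), and LOC100240734 overlapped (0.29). At the HOXC13 end CALCOCO1, a coiled-coil protein, rose by 0.65 (SE 0.120, adjusted p = 0.0253), while ATP5MC2 and ATF7 did not pass. Next to HOXB13 the tubulin-modifying enzyme TTLL6 rose by 0.65 (SE 0.0976, adjusted p = 0.0118). With each array dropped in turn, FLJ12825 passed 6 times of 6, TTLL6 4 times and CALCOCO1 3 times.

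**Figure D3:**
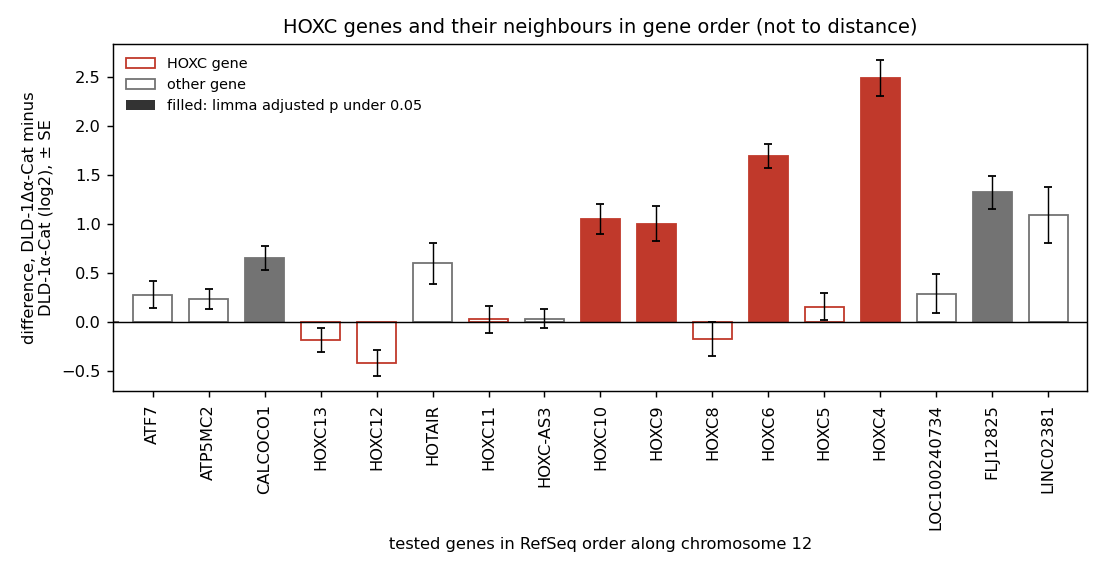
Difference in RMA log2 intensity (DLD-1Δα-Cat minus DLD-1α-Cat, vertical axis, bars ± SE, 3 arrays against 3) for the tested genes of the HOXC region in their order along chromosome 12; red bars are HOXC genes, grey bars other genes, and filled bars passed the threshold. The called genes are not contiguous: HOXC4 stands at 2.49 and HOXC6 at 1.69, with HOXC8 at -0.17 and HOXC5 at 0.15 among them.

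Noncoding RNAs within the clusters gave no call. Of 24 listed, 12 were measured (median -0.014), and limma called 0 higher and 0 lower, with 2 higher and 1 lower at an unadjusted p under 0.05. Among all genes 3.84% and 1.67% were called, and 11.8% and 8.98% were higher and lower at that unadjusted p. HOTAIR, which is read from the strand opposite to the HOXC genes between HOXC11 and HOXC12, was 6.76, 6.46 and 6.61 against 6.17, 6.33 and 5.54 (difference 0.60, adjusted p = 0.160). HOXB-AS3, the brightest of them, differed by -0.056 (SE 0.136). Of the boundary genes EVX1 and PRAC1, 0 passed, also at an unadjusted p under 0.05, and EVX1 differed by -0.034.

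Genes that act with or upstream of HOX genes were read from lists, beside 3.84% of all genes called higher and 1.67% lower. Of 8 measured cofactors (median difference 0.032) PBX3 alone passed. It read 5.84, 5.93 and 5.84 in DLD-1Δα-Cat against 5.14, 5.48 and 5.36, all below the median of all probe sets. It rose by 0.55 (SE 0.114, adjusted p = 0.0379), and kept the call with 1 of the 6 arrays dropped, not with the others. MEIS2 was higher on all DLD-1Δα-Cat arrays without passing (0.47, adjusted p = 0.0949), and passed in the fit blocked on replicate number (adjusted p = 0.0389). Of 6 ParaHox genes (median -0.16), the relatives of HOX genes outside the clusters, the intestinal factor CDX1 fell. It read 6.25, 6.39 and 6.38 against 7.43, 7.39 and 7.48 (-1.09, SE 0.0930, adjusted p = 0.00117), whereas CDX2 differed by 0.11 (adjusted p = 0.677).

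Retinoic acid, made from vitamin A, switches HOX genes on in the embryo. Of 16 genes of its synthesis, binding and receptors (median -0.0095), 1 rose and 1 fell, beside 3.84% and 1.67% of all genes. ALDH1A1, which makes retinoic acid, read 6.99, 6.42 and 5.70 against 5.04, 4.67 and 4.60 (1.60, SE 0.303, adjusted p = 0.0274), with a wide spread in DLD-1Δα-Cat. CRABP2, which carries retinoic acid to its receptors, read 8.19, 8.09 and 8.29 against 9.53, 9.56 and 9.94 (-1.49, SE 0.135, adjusted p = 0.00153). With each array dropped in turn, ALDH1A1 passed 3 times of 6 and CRABP2 6 times. RDH10, which makes retinaldehyde, did not pass (0.61, adjusted p = 0.0830) except in the fit blocked on replicate number (adjusted p = 0.0285).

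Chromatin regulators gave no calls, where limma called 5.52% of all genes. At an unadjusted p under 0.05 by limma, 11.8% of all genes were higher and 8.98% lower. Lists this short can hold 0 calls at such shares. By limma, 0 of 28 Polycomb genes passed, with 2 higher and 1 lower at an unadjusted p under 0.05, and differences ran from -0.29 to 0.49 around a median of -0.036. Among 21 trithorax and COMPASS genes 0 passed, also at an unadjusted p under 0.05, and differences ran from -0.30 to 0.30 around a median of 0.069. CTCF, which sets borders within HOX clusters, differed by 0.025 (SE 0.102), and 0 of 7 genes of CTCF and cohesin passed (limma; median 0.051), with 2 higher at an unadjusted p under 0.05. The brightest members, CBX6 and PSIP1, differed by -0.083 and -0.067.

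Markers of other cells and a sign of RNA quality were read beside these results. Over all genes limma called 3.84% higher and 1.67% lower, with 11.8% and 8.98% at an unadjusted p under 0.05. Of 10 colon epithelial markers only CDX1 passed, and KRT18 differed by -0.033. Among 9 fibroblast markers 0 passed by limma (1 higher and 1 lower at an unadjusted p under 0.05), and their mean lay between 4.66 and 4.72 on the DLD-1Δα-Cat arrays and between 4.60 and 4.92 on the others. Endothelial markers gave 0 of 6, with 1 lower at an unadjusted p under 0.05 and means of 5.05 to 5.17 against 5.14 to 5.24. Of 4 leukocyte markers CD14 fell, with 6.78, 6.41 and 6.52 against 7.52, 7.81 and 7.88 (-1.17, SE 0.142, adjusted p = 0.00517). All 4 differences were below 0, with 0 higher and 2 lower at an unadjusted p under 0.05 by limma. ITGAM differed by -0.40 without passing (limma adjusted p = 0.0625). The mean of the 4 markers was 4.39 to 4.56 against 4.95 to 5.04. PTPRC, CD3E and ITGAM were dim, with means of 3.51, 3.03 and 5.32, below the median of all probe sets, which limits what their values can show.

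Control probe sets at both ends of β-actin give a 3'/5' ratio that grows as RNA is degraded or copied short. On the log2 scale it was 5.16, 5.38 and 5.07 on the DLD-1Δα-Cat arrays and 4.82, 4.89 and 4.36 on the others, without overlap. The 3' end of β-actin thus read much brighter than the 5' end on every array of both groups. The means were 5.20 ± 0.159 and 4.69 ± 0.291 (SD over 3 arrays). A two-sided exact permutation test gave p = 0.1, the smallest that 3 against 3 arrays allow. The same ratio of GAPDH averaged 0.749 ± 0.0670 against 0.656 ± 0.144 (SD over 3 arrays; two-sided exact permutation p = 0.4). With the β-actin ratio as a covariate, HOXC6 passed (1.92, adjusted p = 0.0287). HOXC4 (2.40, adjusted p = 0.0690), HOXC10 (1.38, adjusted p = 0.0971), HOXC9 (0.45, adjusted p = 0.524) and HOXD8 (0.33, adjusted p = 0.713) kept their direction and lost the call. HOXD4 (0.65, limma adjusted p = 0.805) and HOXD11 (-1.37, limma adjusted p = 0.407) did not pass in that fit. The median over the 28 genes was then 0.0033, beside 0.0082 over all genes. With the GAPDH ratio in its place, a fit added once the data had been seen, HOXC4 (2.28), HOXC6 (1.69) and HOXC10 (1.18) passed, HOXC9 (adjusted p = 0.0589) and HOXD8 (adjusted p = 0.0840) did not, and HOXD11 passed as lower (-1.28, adjusted p = 0.0224). The median over the 28 genes was 0.039. Because the β-actin ratio did not overlap between the groups, its part and that of the group cannot be well told apart. For calls outside the HOX genes, such as FLJ12825, CDX1 and CRABP2, these fits are not given here. The part of RNA quality in these results was not tested beyond these fits.

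**Figure D4:**
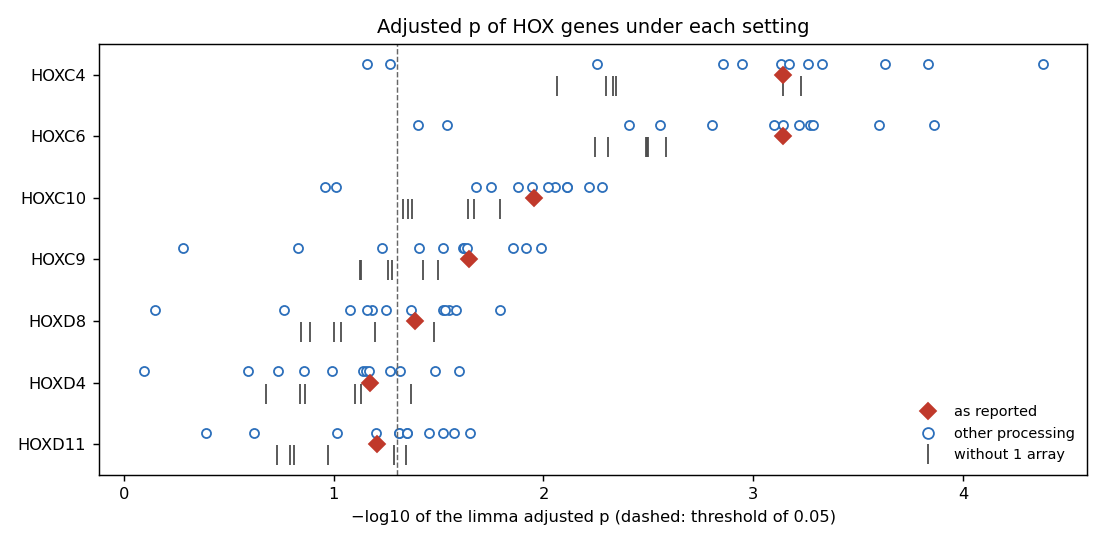
Limma adjusted p, as −log10 (horizontal axis), of 7 HOX genes under each setting; diamonds are the reported fit, open circles 12 other ways of processing (11 for HOXC9, which is left out with the dim genes) and ticks the 6 runs without 1 array, and the dashed line is the threshold of 0.05. All ticks of HOXC4, HOXC6 and HOXC10 lie past the threshold, whereas HOXC9 has 2 and HOXD8, HOXD4 and HOXD11 have 1 each. Other uses of probe sets cannot change the difference of a gene with a single probe set, as all but HOXD4 have.

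The calls differed in how far they rested on single arrays. HOXC4, HOXC6 and HOXC10 passed whichever of the 6 arrays was dropped, with differences of 2.30 to 2.68, 1.59 to 1.76 and 0.93 to 1.18. HOXC9 passed only without replicate 1 or 2 of DLD-1α-Cat (adjusted p from 0.0317 to 0.0747 over the 6), and HOXD8 only without replicate 2 of DLD-1α-Cat.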

How the data were processed

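Total RNA of 6 samples, 3 per group by the sample titles, was measured on Affymetrix arrays after biotin labelling. The deposited log2 intensities were computed by the authors by RMA; the submitters' processing notes name Expression Console of Affymetrix, with no version given in the sources used here. As RMA equalises the arrays, a shift common to all transcripts is lost, and array medians lay between 6.12 and 6.15. Detection calls were not used here. The number of arrays limits the precision.

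Of 54675 probe sets, 62 controls were left out. The annotation (2016) gave 41091 of the others 1 symbol, 1801 several and 11721 none. 41037 of the former matched RefSeq by gene ID (GRCh38.p14). All 19775 genes, each from its brightest probe set, were fitted together with limma 3.58.1 in R 4.3.3 (lmFit, eBayes, two-sided), adjusted by Benjamini-Hochberg. Exact permutation tests used scipy 1.17.1 in Python 3.11.15. Tested on simulated data for this comparison with 19775 genes, the fit found 22%, 73% and 97% of differences of 0.5, 1 and 2, with 5 false calls among 133. The simulation changed only a small share of the genes, with noise independent between genes, so these figures need not hold for the real arrays.

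Members and lists were chosen with earlier results of these data known. Every HOX gene is named; array values are given for those that passed, those that differed by at least 1 without overlap, and the brightest of each cluster, and of each list for those that passed; neighbours are the 3 nearest tested genes on each side. HOXA2, HOTAIR, MEIS2, CDX2 and other list members were added for comparison after their values were seen. Array values of FLJ12825 and HOTAIR were also added then.

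Replicate numbers come from the titles. Over genes, arrays that share a number deviated together (correlations 0.225, 0.376 and 0.122, each above 0.1). Arrays with different numbers gave correlations from -0.317 to 0.0666. Deviations cancel out within a group, so these correlations depend on each other, and no level for unpaired arrays was computed. They are the only evidence that the arrays are pairs. The reported fit does not use the numbers. Blocking on them was 1 alternative, which gave 6 higher and 1 lower HOX genes. The others were quantile normalization, centring, leaving out dim genes, 3 other uses of probe sets, variance trend with robust estimation, no moderation, array weights, the β-actin ratio as a covariate, leaving out each array and, chosen after seeing the data, the GAPDH ratio as a covariate.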

Additional observations from a re-analysis of the deposited data

Results flagged for a closer look

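A probe set of HOXD13 that was not used for the gene, being dimmer than the one that was, passed when every probe set was tested on its own. It read 5.17, 4.94 and 5.09 in DLD-1Δα-Cat and 4.05, 4.52 and 4.28 in DLD-1α-Cat, a difference of 0.78 (limma adjusted p = 0.0425, where 2.45% of all probe sets passed). The used probe set differed by 0.27 and the remaining one by -0.0081, and neither passed. The passing probe set lay below the median of all probe sets in both groups.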

How the results depend on the processing

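Without moderation of the variance, and with the β-actin ratio as a covariate, 1 HOX gene was higher, in both cases HOXC6, instead of 5. With the GAPDH ratio, chosen after seeing the data, 3 were higher and 1 lower (HOXD11). Leaving out an array gave 3 to 6 higher and 0 to 1 lower HOX genes; the count fell to 3 without replicate 2 or 3 of DLD-1Δα-Cat or replicate 3 of DLD-1α-Cat. The 1 lower gene was HOXC12 without replicate 2 of DLD-1α-Cat and HOXD11 without replicate 2 of DLD-1Δα-Cat. HOXD11 was also the 1 lower gene with quantile normalization, centring, dim genes left out and the mean of probe sets. The same held for the variance trend, array weights and the replicate block. That block gained HOXD4 too (6 higher) and lost none of the 5 calls. HOXD4 was also gained with array weights (limma adjusted p = 0.0482, 6 higher) and with the variance trend (0.0253). With that trend HOXB6 passed as well (limma adjusted p = 0.0166, 7 higher). HOXB2 passed without replicate 2 of DLD-1α-Cat (limma adjusted p = 0.0277). HOXD8 did not pass with quantile normalization (adjusted p = 0.0660), centring (0.0564) or every probe set tested (0.0695). Over all HOX genes and settings, 432 values kept their direction and side of the threshold, 16 gained a call, 22 lost one and 27 changed sign. The sign changes were in 9 HOX genes that passed in neither fit: with the β-actin ratio HOXB3 (-0.21), HOXB7 (-0.16), HOXB8 (-0.0067), HOXB9 (-0.30) and HOXD1 (-0.18); with the GAPDH ratio HOXB1 (0.12), HOXB3 (-0.068), HOXB9 (-0.071), HOXC8 (0.019) and HOXC11 (-0.013); with centring HOXB3 (-0.024), HOXB9 (-0.026) and HOXC11 (-0.036); with quantile normalization HOXC11 (-0.10); and with array weights HOXB1 (0.047). Without 1 array, HOXB1 ran from -0.15 to 0.14, HOXB3 from -0.023 to 0.16, HOXB7 from -0.019 to 0.12, HOXB9 from -0.062 to 0.16, HOXC8 from -0.36 to 0.0037, HOXC11 from -0.10 to 0.096 and HOXD12 from -0.29 to 0.0083. Neighbours that passed in neither fit changed sign as well: with centring ATF2 (-0.059), LINC02860 (-0.056) and LNPK (-0.0083); with the mean of probe sets ATF2 (-0.058), ATP5MC2 (-0.0029), CALCOCO2 (-0.038) and LOC101927166 (0.31); without shared-suffix probe sets ATP5MC2 (-0.24); with array weights EVX1 (0.072), HOTTIP (0.045), LINC02860 (-0.0039) and LOC101927166 (0.067); with the β-actin ratio ATF2 (-0.11) and LINC02860 (-0.010); and with the GAPDH ratio ATF2 (-0.0013), EVX1 (0.14) and LOC101927166 (0.035). Without 1 array, ATF2 ran from -0.052 to 0.037, EVX1 from -0.16 to 0.14, HOTTIP from -0.18 to 0.11, LINC02860 from -0.10 to 0.059, LINC03095 from -0.12 to 0.010, LNPK from -0.0049 to 0.14, LOC101927166 from -0.28 to 0.093 and LOC101929963 from -0.096 to 0.22. The median of the HOXC genes was 1.04 without dim genes, where fewer genes were left, and 0.35 with the β-actin ratio; that of HOXD was -0.19 and that of HOXB -0.081 with that ratio. Values near background limit what can be seen in the 7 HOX genes whose mean was below the median of all probe sets. The cause of these shifts was not tested.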
